A study of Mus musculus with 7 samples.

Results

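The genes described here encode the nuclear subunits of the mitochondrial respiratory chain and the ATP synthase, together called oxidative phosphorylation. They were chosen by their symbols in the deposited table (the Ndufa, Ndufb, Ndufc, Ndufs and Ndufv series, Sdha to Sdhd, the Uqcr series with Cyc1, the Cox4 to Cox8 series and the Atp5 series), a rule that uses no measured value. The table held 85 of them among 54347 gene identifiers. By complex they were 37 genes of complex I, 4 of complex II, 9 of complex III, 18 of complex IV and 17 of complex V.

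The data are RNA-seq counts from long-term haematopoietic stem cells (LT-HSC, the marrow cells able to rebuild blood over the long term) of female mice. The 4 WT mice (Emcn+/+) and the 3 KO mice (Emcn-/-) were littermates on the strain labelled C57BL/6N-EMCN em1(IMPC)Wtsi /WtsiH, and no age was stated for them. Emcn, which encodes the surface sialomucin endomucin, is disrupted by a germline allele in this strain, so every cell of a KO mouse carries it and not only the stem cells. Each library came from 3000 to 5000 cells of 1 mouse, sorted from lineage-depleted hind leg marrow with antibodies that included Sca-1, c-kit, CD150 and CD48. Libraries are named by genotype and mouse number: wt_284, wt_290, wt_310 and wt_312, and ko_306, ko_314 and ko_320.

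Complexes I and II take electrons from NADH and succinate and pass them through ubiquinone to complex III, cytochrome c and complex IV, which reduces oxygen. Complexes I, III and IV pump protons across the inner mitochondrial membrane, and complex V (ATP synthase) uses the proton gradient to make ATP. Complexes I, III, IV and V also hold a few subunits made from mitochondrial DNA, whereas complex II is nuclear throughout. Long-term stem cells at rest are known for leaning more on glycolysis than their progeny do, while they still need a working respiratory chain to differentiate.

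Emcn itself matched the genotype labels, with 130, 327, 223 and 216 counts in wt_284, wt_290, wt_310 and wt_312 and 1, 0 and 0 counts in ko_306, ko_314 and ko_320. In CPM (counts per library brought to the same depth with TMM factors), WT mice had 27.1 ± 8.0 (SD, n = 4) and KO mice 0.0287 ± 0.0497 (SD, n = 3). The adjusted p was 1.1e-04 (edgeR's quasi-likelihood test with Benjamini-Hochberg adjustment). Library totals ran from 6444134 to 11101774 counts, and 18507 to 23317 genes had a count. All 10 stem cell markers examined (Kit, Slamf1, Procr, Hlf and others) were detected. They summed to 1381 CPM in wt_284, to 2019 to 2279 CPM in the 3 remaining WT libraries and to 1927 to 2211 CPM in KO. Transcripts of maturing myeloid cells stood apart in wt_284. The 16 myeloid markers summed to 15190 CPM there, to 259 to 1327 CPM in the 3 remaining WT libraries and to 218 to 715 CPM in KO, and all 16 had a higher mean in WT. The 12 erythroid markers found summed to 4275 CPM in wt_284, to 256 to 931 CPM in the 3 remaining WT libraries and to 189 to 337 CPM in KO, and those of the mast cell and basophil list to 8.86 to 91.3 CPM in WT and 0 to 8.09 CPM in KO. The 9 lymphoid markers found summed to 93.2 CPM in wt_284, to at most 16.8 CPM in the remaining WT libraries and to 6.11 to 7.26 CPM in KO. The 11 proliferation genes summed to 3934 CPM in wt_284, to at most 2710 CPM in the remaining WT libraries and to 1627 to 2341 CPM in KO. None of these lists had a marker at 0 in every library. Their part in the subunit levels was not tested, and values without wt_284 are given below.

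No subunit gene differed between KO and WT past the test. Of the 85 genes, 80 had enough counts to be tested, and 0 of these were called at an adjusted p of 0.05 (edgeR's quasi-likelihood test, Benjamini-Hochberg over 15372 genes). Over all tested genes 0.00651% were called, which is Emcn alone. None of the 80 reached an unadjusted p of 0.05 either, against 3.27% of all tested genes (1.28% higher and 1.99% lower in KO). Of the log2 fold changes (KO minus WT), 45 were positive and 35 negative, which is 56.2% positive beside 47.6% of all tested genes. Their median was 0.03, beside -0.02 over all tested genes. In these bulk samples fewer cells of a type and less RNA per cell cannot be told apart.

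The spread of the libraries sets what size of difference these data leave possible. For 66 of the 80 genes (82.5%) the 95% interval of the log2 fold change lay within a 2-fold change in either direction, compared with 49.6% of all tested genes and 76.5% of those with a mean of at least 10 CPM. For 23 genes (28.8%) it lay within 1.5-fold, compared with 20.9% of all tested genes. Genes of at least 10 CPM were not compared at that limit. The median WT level was 37.6 CPM for the subunits and 19.9 CPM for all tested genes. The estimates ran from -0.96 for Cox4i2 to 0.60 for Ndufs6. The 23 core subunits (catalytic or structural centre of each complex) had 10 positive and 13 negative values with a median of -0.06, and the other 57 had 35 positive and 22 negative with a median of 0.09. Smaller differences than these intervals allow could not be seen with 4 and 3 mice.

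**Figure D1:**
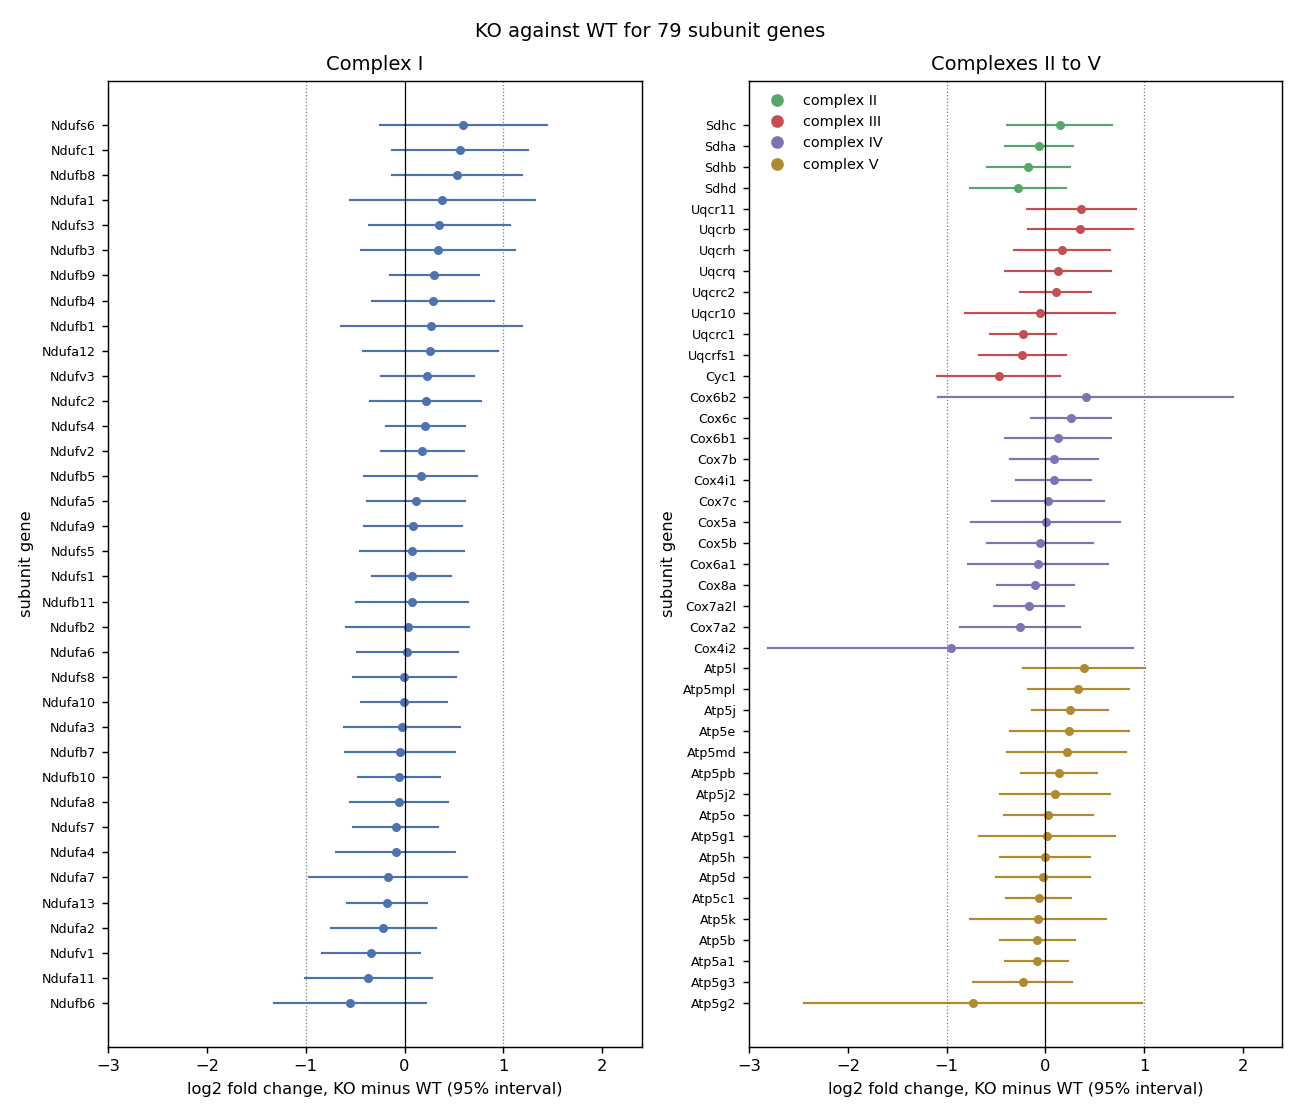
Log2 fold change (KO minus WT) with its 95% interval for 79 of the 80 tested subunit genes, complex I on the left and complexes II to V on the right, ordered by value within a complex. Dotted lines mark a 2-fold change, and every interval crosses 0.

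The level of a subunit transcript varied far more between genes than between genotypes. Levels were compared between genes as CPM per kilobase of transcript, since most of these transcripts are short and longer ones collect more fragments. The median over the tested genes was 45.1 CPM per kb. By complex the median was 35.65 for I, 34.6 for II, 46.5 for III, 59.0 for IV and 75.5 for V. The complexes overlapped widely, since the highest and lowest gene differed 7.09-fold in complex II, 15.4-fold in III, 41.7-fold in V and 96.5-fold in IV.

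The most abundant were Atp5h, a subunit of the ATP synthase stalk, with a mean over the 7 libraries of 305.8 CPM per kb, Atp5mpl, a small membrane subunit, with 281 CPM per kb, and Cox6c, a small membrane subunit of complex IV, with 276.9 CPM per kb. These 3 did not stand apart from each other, since Atp5h had an SD of 49.0 in WT and 91.4 in KO. Uqcrb, a small complex III subunit, followed with 211 CPM per kb. At the other end, Cox4i2 had 2.87 CPM per kb, Ndufb2 6.54, Atp5g1 7.33 and Cox6b2 7.88. The low rank of Ndufb2 and Atp5g1 depends on the long transcript lengths used for them, 2413 and 2675.5 bases. Before division by length they had 15.6 and 19.5 CPM in WT, above Ndufa1 with 8.07 CPM. Between libraries a subunit had a median coefficient of variation of 20.9%.

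**Figure D2:**
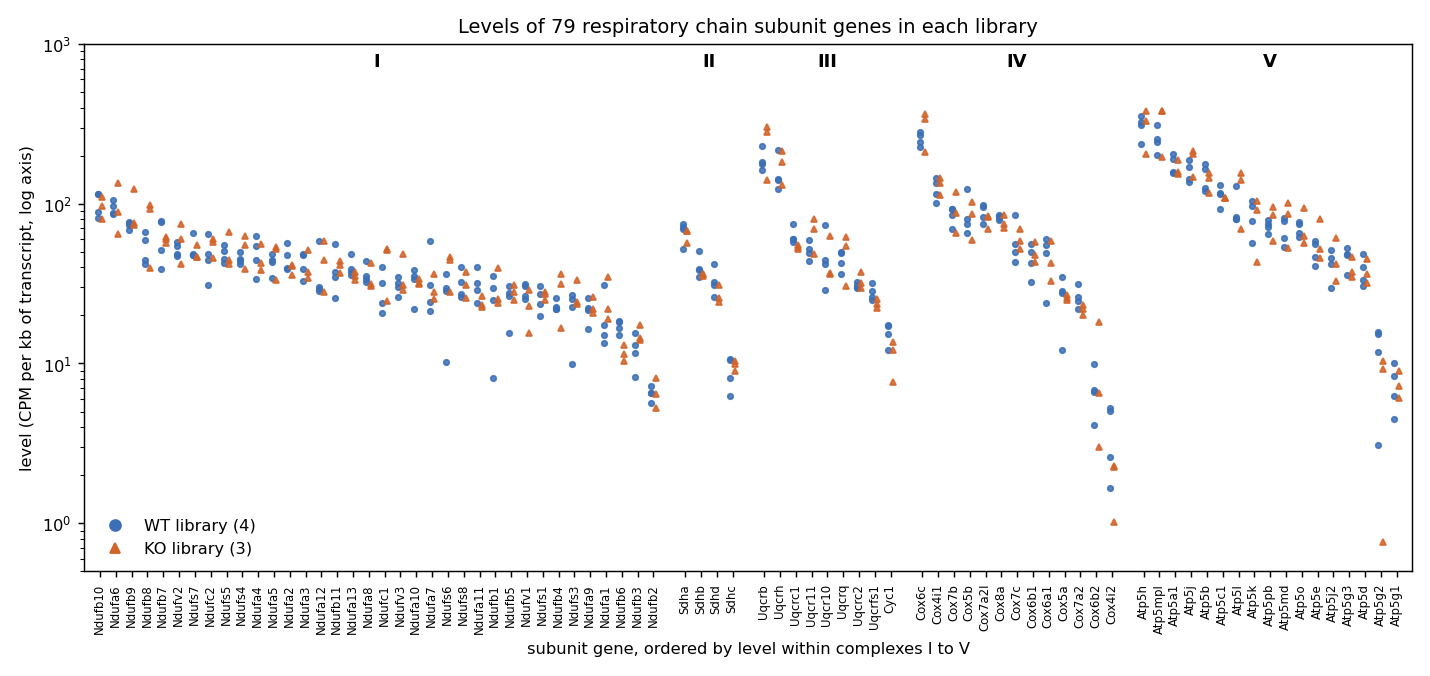
Level of 79 of the 80 tested subunit genes in each library, in CPM per kilobase of transcript on a log axis, with WT libraries as circles and KO libraries as triangles, ordered within complexes I to V. The genes span from 2.87 (Cox4i2) to 305.8 CPM per kb (Atp5h) as means, while WT and KO points mostly intermix.

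Together the subunit genes took 0.446%, 0.448%, 0.466% and 0.450% of all counts in wt_284, wt_290, wt_310 and wt_312, and 0.421%, 0.503% and 0.511% in ko_306, ko_314 and ko_320. By this share the WT libraries lay close together and inside the range of the KO libraries, with ko_306 below and ko_314 and ko_320 above all of WT. The means were 0.453% ± 0.00938 (SD, n = 4) and 0.478% ± 0.0494 (SD, n = 3). The KO libraries therefore disagreed among themselves by more than the genotypes differed. In summed CPM the WT libraries were less close, from 4371 to 4944 CPM. There ko_306, ko_314 and ko_320 had 4028, 4983 and 5249 CPM, so ko_314 lay just above wt_284, the highest of WT.

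The library ko_306 was also the lowest of the KO libraries in complexes I, III, IV and V, but not in II. Complex I took 0.131% to 0.146% in WT and 0.130%, 0.157% and 0.156% in ko_306, ko_314 and ko_320. Complex V took 0.169% to 0.173% in WT and 0.157%, 0.180% and 0.197% in the same KO libraries. Complex II took 0.0262% to 0.0343% of WT counts and 0.0275% to 0.0315% of KO counts, where ko_306 was the highest of the 3. The 13 transcripts made from mitochondrial DNA took 1.52% ± 0.23 of counts in WT and 1.69% ± 0.179 in KO, with ranges of 1.29% to 1.81% and 1.502% to 1.86%.

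**Figure D3:**
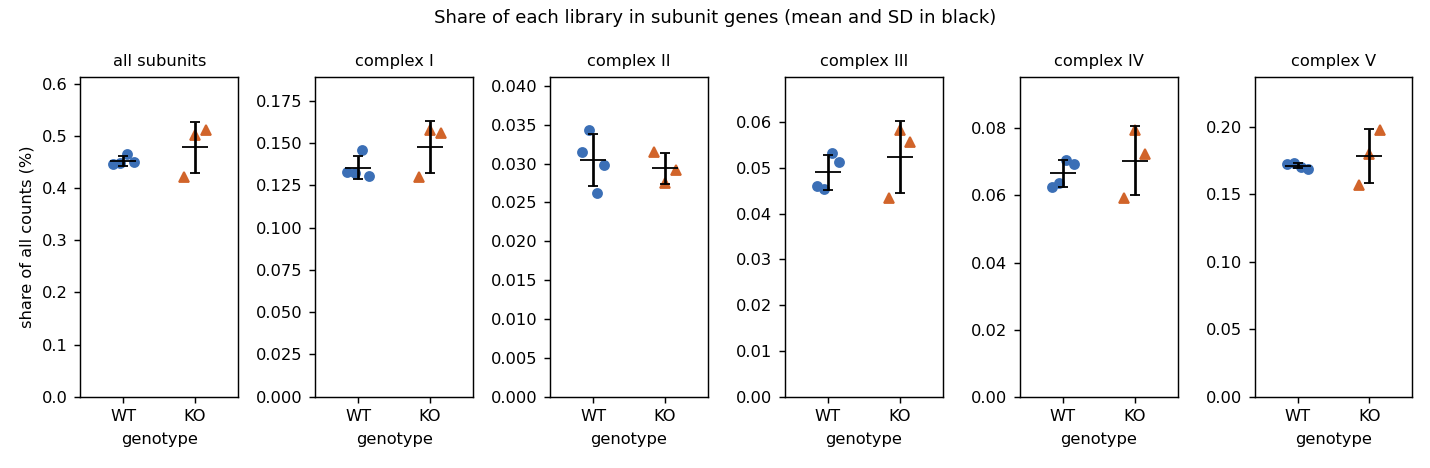
Share of all counts of a library, in percent, held by all subunit genes and by each complex, one point per library, with the mean and SD of each genotype in black. The 3 KO points are spread from 0.421% to 0.511% for all subunits, and the 4 WT points from 0.446% to 0.466%.

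Complex I, the NADH dehydrogenase, had 23 genes with a positive and 14 with a negative log2 fold change, with a median of 0.08 and 0 genes called. The median was 0.03 without ko_314 and 0.15 without wt_284. Its catalytic core carries electrons from NADH through flavin and iron-sulfur clusters to ubiquinone, and none of the core genes described here stood apart. Ndufv1, which binds NADH and flavin, had 42.1 to 52.2 CPM in WT and 25.9 to 47.8 CPM in KO, with a log2 fold change of -0.34 ± 0.23 (SE), which was -0.125 without ko_314 and -0.54 without ko_320. Ndufs3 had a log2 fold change of 0.35 ± 0.33, from 10.4 to 28.1 CPM in WT and 24.6 to 34.8 CPM in KO. The low end in WT was wt_312, whose 10.4 CPM was less than that of any other library, and without that mouse the estimate was 0.13.

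Other core genes lay nearer to 0. Ndufv2 had a log2 fold change of 0.18 ± 0.19, Ndufs1 0.07 ± 0.18, Ndufs8 -0.00 ± 0.24 and Ndufs7 -0.09 ± 0.20. Ndufs1, the largest subunit of the complex, had 51.8 to 80.6 CPM in WT and 65.2 to 73.1 CPM in KO, so its KO range lay inside its WT range. Exons of Ndufs1 overlap those of Eef1b2 on the opposite strand. Ndufa4, which carries a complex I name and is now known as a subunit of complex IV, had -0.09 ± 0.28.

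The estimates furthest from 0 in complex I belonged to accessory subunits, which surround and stabilise the core. Ndufb8 had 30.2, 28.7, 40.3 and 45.1 CPM in wt_284, wt_290, wt_310 and wt_312, and 26.8, 66.7 and 63.3 CPM in ko_306, ko_314 and ko_320. The library ko_306 was the lowest of all 7, and ko_314 and ko_320 were the highest. The log2 fold change was 0.53 ± 0.30 (unadjusted p = 0.103, adjusted p = 0.992 in edgeR's quasi-likelihood test with Benjamini-Hochberg adjustment).

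Leaving out single mice gave 0.33 (without ko_314) to 0.83 (without ko_306).

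Ndufc1 had 16.1, 18.7, 31.3 and 24.8 CPM in the WT libraries in the same order and 19.4, 40.9 and 40.4 CPM in ko_306, ko_314 and ko_320, with a log2 fold change of 0.56 ± 0.32. Here ko_306 lay among the WT values and the other KO libraries above them. Ndufs6, a subunit bound late in assembly that carries a zinc site, had 16.2, 16.9, 20.6 and 5.78 CPM in WT and 15.8, 26.5 and 25.2 CPM in KO, with a log2 fold change of 0.60 ± 0.39. Here the low value of wt_312 widened the difference, and without that mouse the estimate was 0.34. Exons of Ndufs6 overlap those of Mrpl36 on the opposite strand.

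Ndufb6, an accessory subunit of the membrane arm, was 1 of 2 subunit genes with every KO library below every WT library. It had 9.94, 10.95, 11.9 and 12.1 CPM in WT and 6.80, 8.65 and 7.51 CPM in KO, and the log2 fold change was -0.55 ± 0.35, short of the threshold (edgeR adjusted p = 0.992). Of all tested genes, 2.43% had KO below WT in this way and 4.86% were separated in either direction, and 2 of 80 subunit genes is near that background. The remaining complex I genes ran from -0.37 for Ndufa11 to 0.38 for Ndufa1, and the row for Ndufb1 is typed as a long non-coding RNA in GENCODE M21.

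Ndufb6 lies on the minus strand at chr4:40270591-40279421 (GRCm38), held 566 counts over the 7 libraries, and overlaps exons of Smim27 on the opposite strand.

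Complex II, the succinate dehydrogenase, is also an enzyme of the citric acid cycle. It had 1 gene with a positive and 3 with a negative log2 fold change and a median of -0.12, which was -0.04 without wt_284, -0.06 without ko_314 and 0.03 when only the mice numbered above 300 were used. Sdha, the flavoprotein that oxidises succinate, was the most abundant with 66.9 ± 10.3 CPM per kb in WT and 64.1 ± 6.0 in KO. Its level was 207, 216, 150 and 203 CPM in the WT libraries and 196, 166 and 196 CPM in the KO libraries. The groups overlapped, and the log2 fold change was -0.06 ± 0.16.

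Sdhb, the iron-sulfur subunit, had 39.7 to 57.7 CPM in WT and 40.3 to 41.7 CPM in KO, with a log2 fold change of -0.17 ± 0.19. Sdhc and Sdhd anchor the enzyme in the membrane and stood on opposite sides of 0. Sdhc had 0.14 ± 0.24 and Sdhd -0.28 ± 0.22. For Sdhb and Sdhd the highest library was wt_284, with 57.7 and 51.9 CPM.

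Complex III, the cytochrome bc1 complex, had 5 positive and 4 negative estimates with a median of 0.10. Without ko_314 the median was -0.06. The redox subunits encoded in the nucleus, Cyc1 and Uqcrfs1, lay on the lower side. Cytochrome b, made from mitochondrial DNA, lay on the higher side with a log2 fold change of 0.30. Cyc1, the haem protein cytochrome c1, had 26.2, 26.3, 23.4 and 18.5 CPM in WT and 20.8, 18.5 and 11.6 CPM in KO. The KO value of ko_320 was the lowest of all, and wt_312 and ko_314 were alike. Its log2 fold change was -0.47 ± 0.29, and -0.24 without ko_320. Uqcrfs1, the Rieske iron-sulfur protein, had 33.9 to 43.6 CPM in WT and 30.3 to 34.4 CPM in KO, with a log2 fold change of -0.23 ± 0.20.

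Uqcrc1, a core structural subunit, was the other gene with no overlap between genotypes. It had 123, 95.3, 98.9 and 99.1 CPM in wt_284, wt_290, wt_310 and wt_312 and 86.5, 89.0 and 91.6 CPM in ko_306, ko_314 and ko_320. The gap between the lowest WT and the highest KO library was small beside the distance of wt_284 from the rest of WT. The log2 fold change was -0.22 ± 0.15, the edgeR adjusted p was 0.992, and without wt_284 the estimate was -0.13. The gene lies at chr9:108936633-108949623 (plus strand, GRCm38) and held 5762 counts.

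Its partner Uqcrc2 had a log2 fold change of 0.10 ± 0.17, with 56.6 to 61.7 CPM in WT and 56.5 to 71.3 CPM in KO. The small subunits Uqcrb and Uqcr11 had 0.35 ± 0.24 and 0.36 ± 0.25. Uqcrb had 95.5, 86.6, 123 and 97.5 CPM in WT and 75.0, 161 and 150.3 CPM in KO, so ko_306 was the lowest library and the other KO libraries the highest. This is the arrangement of Ndufb8 again. The small subunits Uqcrh, Uqcrq and Uqcr10 had 0.17 ± 0.22, 0.13 ± 0.25 and -0.06 ± 0.35.

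Complex IV, the cytochrome c oxidase, had 7 positive and 6 negative estimates among 13 tested genes. The median was 0.00, and it was -0.13 without ko_314, 0.10 without ko_306 and just below 0 with RLE scaling. Cox4i1, Cox5a and Cox5b are nuclear subunits that surround its catalytic core, and had 0.08 ± 0.17, 0.00 ± 0.35 and -0.06 ± 0.25. Cox5a ran from 7.83 CPM in wt_312 to 22.4 CPM in wt_284 while its KO libraries lay between 16.1 and 17.2 CPM. Cox6c had 162, 147, 172 and 137 CPM in WT and 128, 206 and 222 CPM in KO, with a log2 fold change of 0.26 ± 0.19. Its KO libraries also held the lowest value and the highest values of the 7. Cox6b1, Cox7b, Cox7c, Cox6a1 and Cox8a ran from -0.10 to 0.13.

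Several complex IV subunits have tissue-specific isoforms, and most of the muscle and testis forms were near or at 0, with Cox6b2 an exception. Cox8b, Cox7b2 and Cox8c had 0 counts in every library, which allows up to 0.0505 CPM over the pooled libraries and 0.270 to 0.466 CPM in a single one (3 counts, counting error only). Cox6a2, a heart and skeletal muscle form, had 5 counts, all in wt_284, and Cox7a1, also a muscle form, had 6 counts. These 5 genes failed the filter on low counts. The general forms Cox6a1, Cox7a2, Cox7b and Cox8a were at 24.2 to 87.2 CPM per kb.

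Cox4i2, the isoform of lung and of oxygen sensing, was low and detected in every library. It made up 1.18%, 2.14%, 3.23% and 4.80% of Cox4 counts in wt_284, wt_290, wt_310 and wt_312, and 1.87%, 0.674% and 1.595% in ko_306, ko_314 and ko_320. The ranges overlapped, with 3 WT libraries above all KO libraries and wt_284 below 2 of them. The means were 2.83% ± 1.56 (SD, n = 4) and 1.38% ± 0.628 (SD, n = 3), with p = 0.229 and an adjusted p of 0.771 over 6 paralogue shares (two-sided exact permutation test, smallest possible p = 0.0286). The gene held 121 counts in all, and its log2 fold change was -0.96 ± 0.85.

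Cox6b2, known from testis, made up 9.84% to 15.2% of Cox6b counts in WT and 11.9%, 25.2% and 4.47% in ko_306, ko_314 and ko_320. The 2 extremes of all libraries were thus both KO, and the difference of 1.98 percentage points had an exact permutation p of 0.743. The log2 fold change of Cox6b2 was 0.41 ± 0.69, and it was -0.51 without ko_314. Cox7a2l, which is now known as a factor joining complexes III and IV in supercomplexes, made up 84.4% ± 3.63 of Cox7a counts in WT and 85.2% ± 1.97 in KO. Its log2 fold change was -0.16 ± 0.16, and that of Cox7a2 -0.26 ± 0.28. No paralogue share passed the test, but the design could not have let a single one pass after adjustment, since the smallest adjusted p it could reach is 0.171.

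Complex V had 9 positive and 8 negative estimates with a median of 0.02, and the median depended on single mice. It was 0.20 without ko_306 and -0.15 without ko_320. The catalytic head is a ring of Atp5a1 and Atp5b around the shaft Atp5c1. Atp5a1 had 504, 470, 389 and 387 CPM in WT and 392, 377 and 465 CPM in KO, with a log2 fold change of -0.09 ± 0.15. Atp5b followed the same pattern over libraries, with 339, 317, 229 and 239 CPM in WT and 278, 222 and 297 CPM in KO, and had -0.08 ± 0.17. For both genes wt_284 and wt_290 were the highest, and the groups overlapped. Atp5c1 had 108 to 153 CPM in WT and 126 to 127 CPM in KO, with -0.07 ± 0.15.

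Of the stalk, Atp5o had a log2 fold change of 0.03 ± 0.21, Atp5pb 0.14 ± 0.18 and Atp5j 0.25 ± 0.18. Atp5j had 101, 106, 126 and 138 CPM in WT and 110, 160 and 152 CPM in KO. The membrane subunits Atp5mpl and Atp5l had 0.33 ± 0.23 and 0.39 ± 0.28. Atp5mpl had 124, 98.8, 120 and 153 CPM in WT and 95.4, 186 and 186 CPM in KO, so that ko_306 was again the lowest and ko_314 and ko_320 the highest of the 7. Atp5e, Atp5md, Atp5j2, Atp5h, Atp5d and Atp5k ran from -0.08 to 0.24.

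The c-ring, the rotor that protons turn, is encoded by 3 genes, Atp5g1, Atp5g2 and Atp5g3, whose precursors differ in the part that is cut off and whose mature protein is the same. The first 120 of the last 228 coding bases of each are shown because they tell the 3 genes apart and at the same time show how alike a pseudogene is to one of them. Capitals mark positions that differ between the 3 genes (29 in this window).
Atp5g1: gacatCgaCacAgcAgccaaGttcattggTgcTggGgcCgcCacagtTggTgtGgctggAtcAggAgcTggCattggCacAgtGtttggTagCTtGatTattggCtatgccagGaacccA
Atp5g2: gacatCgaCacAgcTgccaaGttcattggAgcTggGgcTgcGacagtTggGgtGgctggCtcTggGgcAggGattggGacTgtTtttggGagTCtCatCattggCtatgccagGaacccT
Atp5g3: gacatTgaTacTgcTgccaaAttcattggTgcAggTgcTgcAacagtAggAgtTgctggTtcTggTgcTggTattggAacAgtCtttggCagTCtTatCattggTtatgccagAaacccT
Gm10175: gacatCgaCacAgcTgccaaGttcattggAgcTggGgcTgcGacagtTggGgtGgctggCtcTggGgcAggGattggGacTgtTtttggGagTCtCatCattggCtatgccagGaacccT

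Over the 228 bases 58 positions differed between the 3 genes, and 0 codons differed in the residue they encode. Atp5g1 and Atp5g2 differed at 34 positions, Atp5g2 and Atp5g3 at 49, and Atp5g1 and Atp5g3 at 46. The sequences are from GENCODE M21 (GRCm38), where Atp5g1 lies at chr11:96068852-96075670, Atp5g2 at chr15:102662864-102672352 and Atp5g3 at chr2:73908447-73911326, all on the minus strand. Gm10175 (chr7:23946646-23947290, minus strand), annotated as a transcribed processed pseudogene, had 0 differences from Atp5g2 in these bases. Its whole annotated transcript of 645 bases is contained in a transcript of Atp5g2, so reads from this stretch fit both.

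Counts were split between the gene and this copy. Atp5g2 held 344 counts over the 7 libraries and Gm10175 held 1580, and the share of their sum given to Atp5g2 ran from 2.14% to 26.1% between libraries. Alone, Atp5g2 had 8.97, 9.16, 6.88 and 1.80 CPM in WT and 5.42, 0.447 and 6.11 CPM in KO, with a log2 fold change of -0.74 ± 0.79. Its low values in wt_312 and ko_314 were not matched by the copy, which had 25.0 and 20.4 CPM there. Summed with the copy, WT libraries had 36.8 ± 7.97 CPM (SD, n = 4) and KO libraries 26.3 ± 4.83 CPM (SD, n = 3), made up of 34.3, 41.2, 44.9 and 26.8 CPM in WT and 28.1, 20.9 and 30.1 CPM in KO. The value of Atp5g2 alone is therefore uncertain.

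The order of the 3 c-subunit genes depended on this split and on transcript length. Without copies, the means were 43.3 CPM per kb for Atp5g3, 9.46 for Atp5g2 and 7.33 for Atp5g1. The lengths used were 718.5, 586 and 2675.5 bases. The shares that follow are not divided by length. By counts as deposited, Atp5g3 made up 57.1% ± 6.18 of the family in WT and 54.2% ± 3.39 in KO, Atp5g1 32.4% ± 3.27 and 38.3% ± 8.86, and Atp5g2 10.6% ± 4.11 and 7.58% ± 5.98. With copies added, Atp5g2 made up 40.3% ± 4.90 in WT and 35.3% ± 5.62 in KO, and Atp5g3 36.5% ± 1.35 and 37.9% ± 2.94. None of the genotype differences passed the exact permutation test in either form, under the same limit of the design. The log2 fold changes were 0.02 ± 0.32 for Atp5g1 and -0.23 ± 0.23 for Atp5g3.

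Ndufb4, an accessory subunit of complex I, had the same problem. Ndufb4c, a processed pseudogene at chr15:73809507-73809896 (minus strand, GRCm38), is identical to its coding sequence of 390 bases and held 2367 counts beside 1402 for Ndufb4. Ndufb4 alone had 22.3 ± 1.78 CPM in WT and 27.3 ± 9.86 CPM in KO. Summed, the level was 53.3, 49.1, 53.2 and 80.9 CPM in WT and 50.4, 73.4 and 96.0 CPM in KO. In all, 23 subunit genes had a near-identical copy in the annotation, but in only 2 of them did the copies hold more counts than the gene, and in 5 they held over 5% as many. Atp5l was among the latter, with 9 copies that held 429 counts beside its 3280. Adding them raised its counts from 436 to 570 in ko_306 and left them at 572 in ko_314. These counts are not scaled to depth, and ko_306 held 11101774 counts in all against 6648881 in ko_314. They therefore do not put ko_306 and ko_314 at a like level. Alone, Atp5l had 37.5 CPM in ko_306 and 85.3 CPM in ko_314. The levels, fold changes and p of Atp5l given here are without its copies. Exons of 27 subunit genes overlap a gene on the opposite strand, and no source used here states whether the counting used strand. For some the overlapping gene held more counts, such as Eef1b2 (47859) beside Ndufs1 (4042) and Vps13b (16478) beside Cox6c (9707).

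**Figure D4:**
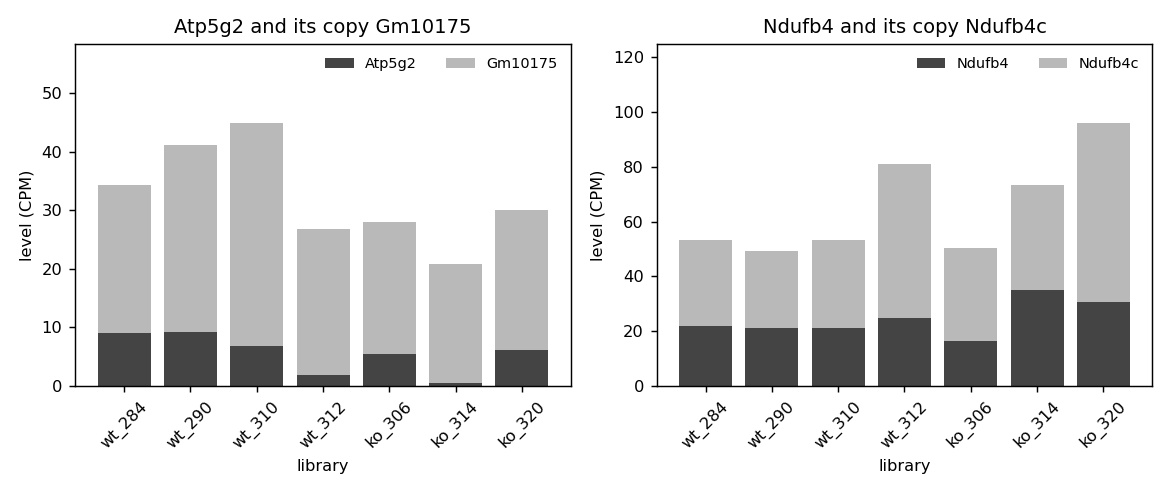
Level in CPM of Atp5g2 with its copy Gm10175 (left) and of Ndufb4 with its copy Ndufb4c (right) in each library, stacked. The copy holds most of each bar, and Atp5g2 itself drops to 0.447 CPM in ko_314 while the sum there is 20.9 CPM.

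Nuclear respiratory chain genes are known targets of NRF1, of the ETS family factor GABP (also called NRF2) and of YY1, and their promoters were searched for these motifs. RefSeq promoters (GRCm38.p6, 250 bases before to 50 after the start) matched 69 of the 85 genes by symbol. The core NRF1 letters CGCATGCG, on either strand, were in 9 of the 69 (13.0%) and in 2.07% of the 27025 genes with promoters of that length, a gene counting once where it has several starts. The ETS letters CCGGAAG were in 17 (24.6%, against 9.93%) and the YY1 letters AAGATGGC in 10 (14.5%, against 3.19%). The SP1 letters GGGCGG, in 28 (40.6%, against 38.2%), were about as common as elsewhere. The 4 motifs do not contain one another. The 27025 genes include the subunits themselves and were not limited to genes expressed here. No comparison with other genes of like expression was made.

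The genes with the NRF1 letters were Ndufa8, Ndufa11, Uqcr11, Uqcrc1, Cox6a1, Atp5g2, Atp5j, Atp5k and Atp5l. The bases before the RefSeq start of Cox6a1 (chr5:115348959-115349208, minus strand) and Atp5k (chr5:108434400-108434649, minus strand) are shown as examples of how the letters sit near a start. GENCODE M21 starts these genes inside the stretches shown, at chr5:115348981 and chr5:108434448. By that annotation the ETS letters of Cox6a1 and the NRF1 letters of Atp5k lie within the gene. Capitals mark the NRF1 letters and, in Cox6a1, also the ETS letters on the other strand.
Cox6a1: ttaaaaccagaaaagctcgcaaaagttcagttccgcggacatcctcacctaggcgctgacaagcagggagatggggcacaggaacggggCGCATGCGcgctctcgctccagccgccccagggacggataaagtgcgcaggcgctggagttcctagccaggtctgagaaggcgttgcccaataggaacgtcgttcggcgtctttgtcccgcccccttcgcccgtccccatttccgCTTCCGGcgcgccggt
Atp5k: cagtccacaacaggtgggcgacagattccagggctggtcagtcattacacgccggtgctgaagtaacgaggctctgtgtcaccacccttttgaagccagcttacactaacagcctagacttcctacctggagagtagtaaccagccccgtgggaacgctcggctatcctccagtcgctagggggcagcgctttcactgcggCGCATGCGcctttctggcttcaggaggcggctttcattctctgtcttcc

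The 9 genes with the NRF1 letters had log2 fold changes from -0.74 to 0.39, with 3 positive, 6 negative and none past the test, and a median of -0.08. The 57 tested genes searched that lacked them had a median of 0.03, with 32 positive and 25 negative. For the ETS letters the medians were -0.00 with and 0.03 without, and for the YY1 letters 0.17 with (8 positive, 2 negative) and -0.00 without. These are descriptions of small groups seen after the values were known, and a match to letters is not a bound site.

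Genes around the subunits gave no call either. Of the 61 tested assembly factors, which build the complexes and do not stay in them, 0 were called, 38 had a positive and 23 a negative log2 fold change, and the median was 0.10. Higd2a, which promotes assembly of complex IV, had 9.33, 8.03, 12.4 and 8.35 CPM in WT and 6.89, 4.77 and 1.53 CPM in KO, with a log2 fold change of -1.10 ± 0.53 (unadjusted p = 0.06, adjusted p = 0.992 in edgeR's quasi-likelihood test). Every KO library lay below every WT library.

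Ndufaf5 and Ndufaf2, assembly factors of complex I, lay the other way, with every KO library above every WT library. Ndufaf5 had 7.76 to 11.5 CPM in WT and 11.6 to 19.7 CPM in KO, with a log2 fold change of 0.68 ± 0.33. Ndufaf2 had 16.6 to 24.3 CPM in WT and 25.5 to 30.9 CPM in KO, with 0.51 ± 0.25. Among the assembly factors 4 were above and 2 below WT in this way, against the background of 2.43% in each direction. Of the other factors, Cox14 had 0.49 ± 0.25, Sdhaf3 0.52 ± 0.49, Sdhaf2 0.23 ± 0.22, Uqcc2 0.52 ± 0.31, Bcs1l 0.41 ± 0.33, Fmc1 -0.74 ± 0.61 and Atpaf2 0.17 ± 0.30, all with overlapping groups.

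Ubiquinone and cytochrome c carry electrons between the complexes, and of 23 genes for them and their synthesis 0 were called, with 13 positive and 10 negative. Coq5, a methyltransferase of ubiquinone synthesis, had 18.0 to 27.2 CPM in WT and 28.3 to 38.5 CPM in KO, and Coq9, a lipid-binding protein of the same pathway, 17.0 to 28.0 CPM in WT and 28.8 to 32.7 CPM in KO. Both had a log2 fold change of 0.51, with SE of 0.24 and 0.26. Both were above all of WT in every KO library, by a narrow margin in ko_306. Of the 23 genes, 2 were above and 0 below WT in this way, against 2.43% of all tested genes in each direction. Coq5 and Coq9 were named because their p was the smallest of the list. Their unadjusted p was 0.0538 and 0.0719 (edgeR), and the adjusted p was 0.992 for both.

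None of the 17 regulators of mitochondrial gene expression was called. Pprc1, a coactivator of NRF1, had 0.23 ± 0.17, and Gabpb1, the beta subunit of GABP, 0.29 ± 0.22. Of 18 genes of the citric acid cycle and pyruvate dehydrogenase 0 were called, and Mdh2 had -0.30 ± 0.17 and Dlat -0.35 ± 0.21. The 13 mitochondrially encoded subunit genes had 11 positive estimates (84.6%, beside 47.6% of all tested genes) and 0 calls. Their log2 fold changes ran from -1.90 for mt-Co3, a subunit of complex IV, to 0.30 for mt-Cytb, with a median of 0.15. Mt-Cytb, the cytochrome b of complex III, had 1995 ± 267 CPM in WT and 2460 ± 498 CPM in KO, with a log2 fold change of 0.30 ± 0.16.

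Single libraries differed within a genotype as well as between genotypes. Over the 80 subunit genes the SD of the log2 ratio of 2 libraries was lowest for wt_290 and ko_306, at 0.19, a pair of opposite genotype. Counting error alone would give 0.13 for that pair. The 3 pairs among wt_284, wt_290 and ko_306 had 0.19 to 0.27, and the other 18 pairs 0.33 to 0.64. Pairs of WT libraries had 0.26 to 0.64, pairs of KO libraries 0.43 to 0.57, and pairs of opposite genotype 0.19 to 0.62, so the 3 kinds of pair overlapped. A shift shared by all 80 genes does not enter this SD.

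Gene by gene, wt_290 and ko_306 were within 1.2-fold (after adding 0.5 CPM) for 68 of the 80 subunit genes, while ko_314 and ko_320 were for 44, ko_306 and ko_320 for 35 and ko_306 and ko_314 for 33. The lowest of the 3 KO libraries was ko_306 for 45 genes, and ko_306 was the highest of all 7 for 0 genes and the lowest for 23. The lowest of all 7 was wt_312 for 22 genes. Other genes of at least 10 CPM gave the same closest pair, with an SD of 0.32.

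**Figure D5:**
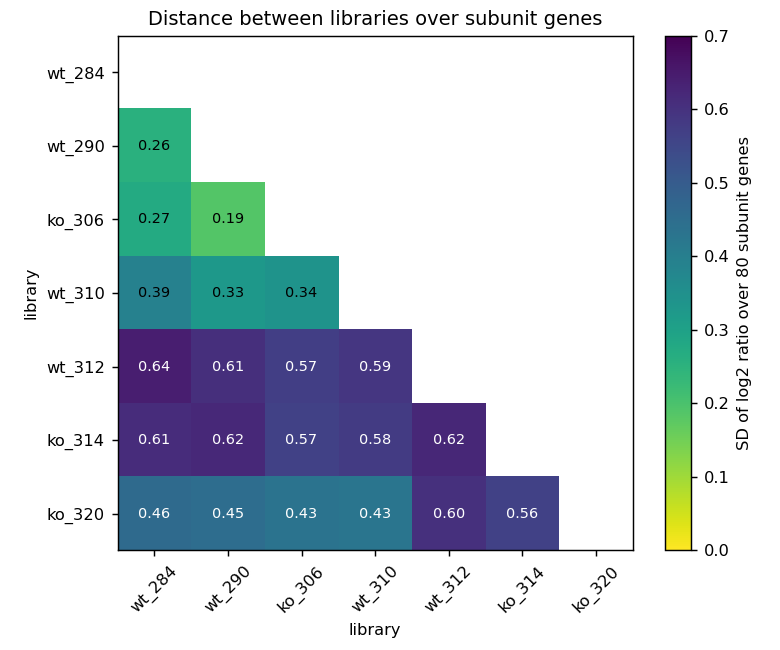
SD of the log2 ratio between each pair of libraries over the 80 tested subunit genes, in log2 units, with libraries ordered by mouse number. The lowest value is 0.19 for wt_290 with ko_306, and the highest is 0.64 for wt_284 with wt_312.

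Among the subunit genes, transcript length moved with these library differences. Among the 40 subunit genes with transcripts under 800 bases, the median deviation from the mean of the 7 libraries (log2) was -0.01 in wt_284, -0.11 in wt_290 and -0.16 in ko_306, and 0.10, 0.06, 0.18 and 0.27 in wt_310, wt_312, ko_314 and ko_320. Among the 40 longer ones it ran from -0.10 in wt_312 to 0.16 in wt_284. The 484 other genes of at least 10 CPM with short transcripts did not follow this throughout, with 0.10 in wt_284, -0.02 in wt_290, -0.12 in ko_306, 0.09 in wt_310, -0.06 in wt_312, 0.01 in ko_314 and 0.12 in ko_320. Across the 80 genes, which are not independent replicates and share each library's depth and RNA quality, Pearson's r between the deviation and log2 length was 0.18, 0.35 and 0.35 in wt_284, wt_290 and ko_306, and -0.16, -0.11, -0.12 and -0.20 in wt_310, wt_312, ko_314 and ko_320. The same 3 libraries were the deepest, with 9155059 to 11101774 counts against 6444134 to 8071035, and had the most genes detected, 22482 to 23317 against 18507 to 19760. The part of length, RNA quality or sort in the levels was not tested.

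Without ko_306 the median log2 fold change of the subunit genes was 0.11, and 6 of them had an unadjusted p under 0.05 (Cox6c, Atp5mpl, Uqcrb, Ndufb8, Ndufc1 and Atp5l, all higher in KO), with 0 called by edgeR after adjustment. That is 7.5% of the subunit genes, and in the same fit 5.63% of all tested genes had such a p (1.93% of all tested genes with a higher level in KO). Without wt_284 the median was 0.12, with 1 gene (Atp5l) at that unadjusted level, against 2.21% of all tested genes, and 0 called. With only the mice numbered above 300 it was 0.08.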

How the data were processed

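The authors deposited 1 table of estimated counts for each gene, held as whole numbers and not scaled between libraries. All 7 value columns were used. Cutadapt and Salmon are named, without versions, per the submitters' processing notes. Libraries were made with a stranded total RNA kit for small inputs and sequenced in pairs, per the labels' protocols, whereas the molecule label reads polyA RNA. The annotation used and how transcripts were summed to genes stand in no source used here.

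In R 4.3.3, low genes were removed with filterByExpr, leaving 15372 of 29739 genes with any count. The robust quasi-likelihood test of edgeR 4.0.16 then compared the 3 KO with the 4 WT libraries on TMM factors, at a threshold of 0.05 after Benjamini-Hochberg adjustment. The script was tested on simulated data. Standard errors were taken from the log2 fold change and the F value. CPM are counts scaled to the TMM-adjusted library size. Transcript lengths, positions and copies (at least 95% identity over 150 bases for pseudogenes and 200 for other genes, blastn 2.17.0) come from GENCODE M21, and promoters from RefSeq. Depth per sample is given as library totals, and counting limits cover counting error only. For paralogue shares the exact permutation test was two-sided and ran over 35 splits (scipy 1.17.1).

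The subunits were taken by a rule on symbols alone, but this group of genes and the other gene lists were chosen with earlier results of these data known. Named were Emcn, the 4 subunits with the smallest p in each complex, core and tissue isoform subunits, up to 4 passing genes of each related list filled to 2 by p, and the smallest p among mitochondrially encoded genes. Of the genes this takes, 1 is not reported here by itself, although it stays in counts, medians and sums. Ends of ranges, genes with copies and genes with motifs were named after their values were seen. Alternatives were DESeq2 1.42.0, limma-voom 3.58.1 with quality weights, RLE and upper-quartile scaling, no filter, 1 CPM in 3 libraries, mice numbered above 300, and leaving out each mouse. Merging near-identical copies was added after seeing the data.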

Additional observations from a re-analysis of the deposited data

Results flagged for a closer look

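In 65 results examined for a WT library far from the other 3, 5 stood out, and chance flags about 1 in 20. Ndufs7, an iron-sulfur subunit of complex I, had 57.2 CPM in wt_310 and 41.6 to 42.2 CPM in the rest of WT. The complex I share of all counts was likewise highest in wt_310, at 0.146% against 0.131% to 0.133%. The other 3 were high in wt_284, the library with the most myeloid transcripts. Uqcrc1 had 123 CPM there and 95.3 to 99.1 CPM in the others, Atp5l had 70.5 CPM and 43.4 to 44.6 CPM, and Mdh2, malate dehydrogenase of the citric acid cycle, had 182 CPM and 121 to 132 CPM. The Atp5l values leave out its near-identical copies. Atp5l had 582, 462, 292 and 338 counts (not scaled to depth) in wt_284, wt_290, wt_310 and wt_312 alone. With copies it had 607, 555, 368 and 382, and wt_284 stood out less.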

How the results depend on the processing

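No paired analysis was possible because no mouse number occurs in both genotypes and no label pairs the mice. Genes called over the whole table numbered 1 with edgeR, 13 with DESeq2, 0 with limma-voom with quality weights, 81 with no filter, 7 with only mice numbered above 300, and 1 to 3 when leaving out each mouse. Subunit genes called stayed at 0 under every alternative run. Leaving out each mouse, the median log2 fold change ran from -0.0634 to 0.129 for complex III and from -0.148 to 0.196 for complex V. Shares of the family, KO minus WT in percentage points, ran from -3.68 to 6.68 for Cox6b2, -0.849 to 2.0 for Cox7a2l and -5.45 to 0.331 for Atp5g2. For Cox6b2 and Atp5g2 the sign turned without ko_314, and for Cox7a2l without wt_284. For Atp5g3 the share difference was 1.3 with counts divided by transcript length and 1.39 with copies merged, both reversed from -2.90.

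Some log2 fold changes changed sign, most of them near 0 and that of Cox6b2 from 0.41. Leaving out each mouse they ran from -0.00731 to 0.356 for Ndufv2, -0.161 to 0.0335 for Ndufs7, -0.00976 to 0.183 for Ndufs1, -0.247 to 0.071 for Ndufa4, -0.13 to 0.144 for Ndufs8, -0.169 to 0.0283 for Sdha, -0.507 to 0.841 for Cox6b2, -0.233 to 0.183 for Cox5b, -0.212 to 0.185 for Cox5a, -0.167 to 0.0491 for Atp5b, -0.14 to 0.00562 for Atp5c1, -0.207 to 0.185 for Atp5o, -0.134 to 0.215 for Atp5g1 and -0.151 to 0.345 for Atpaf2. With limma-voom, Ndufs8 had 0.087, Cox5b 0.0237, Cox5a -0.0708, Atp5o -0.0449, Atp5g1 -0.0468 and Atpaf2 -0.116. With only mice numbered above 300, Ndufs8 had 0.105, Sdha 0.0806, Atp5a1 0.0892 and Atp5b 0.188. Ndufs8 had 0.0437 with upper-quartile scaling, 0.00105 with no filter and 0.0155 with at least 1 CPM in 3 libraries. Cox5a had -0.00409 with DESeq2 and -0.00388 with RLE scaling, and Atp5g1 -0.104 with copies merged. The cause of these changes was not tested. With 4 and 3 mice, paralogue shares could not reach an exact permutation p under 0.0286, and low genes such as Cox4i2 are limited by their counts.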
